A study of Homo sapiens with 6 samples.

Results

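The genes described here are the subunits of protein kinase A (PKA) and 3 enzymes that make or break down its messenger cAMP, in MDA-MB-231 cells with CDK16 knockdown or rebastinib (Reb) treatment. The 9 genes, of 42972 gene symbols in the tables, are the catalytic subunits PRKACA and PRKACB, the regulatory subunits PRKAR1A, PRKAR1B, PRKAR2A and PRKAR2B, the adenylyl cyclases ADCY3 and ADCY9 and the phosphodiesterase PDE4D. They were chosen by name, because PKA is known to phosphorylate CDK16 and because the count of PRKACB was lower than in the control with both CDK16 hairpins. The knockdown values therefore chose the set and are given here as a description, with no test.

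MDA-MB-231 is an established human triple-negative breast cancer cell line with a mesenchymal-like phenotype. In the first experiment, cells stably carried a lentiviral scramble shRNA (the control), CDK16-sh1 or CDK16-sh2, each from a hairpin plasmid with a GFP marker by which the cells were sorted. In the second, cells were kept for 48 h in the vehicle DMSO or in Reb at a low (1 μM) or a high (5 μM) concentration. Reb is a kinase inhibitor that acts on CDK16 and also on other kinases such as Tie2. The 6 conditions had 1 library each and the 2 experiments had separate controls, so no difference has a replicate check, and the DMSO and scramble libraries cannot serve as replicates of each other.

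PKA is the main kinase that answers to cAMP. Adenylyl cyclases in the membrane, driven by receptors coupled to the G protein Gs, make cAMP from ATP, and phosphodiesterases such as PDE4D destroy it. In the resting kinase a dimer of regulatory subunits, of type I or type II, holds catalytic subunits inactive, and cAMP bound to the regulatory subunits sets them free. Anchoring proteins place the type II kinase, and some of the type I kinase, at chosen sites in the cell. Free catalytic subunit can enter the nucleus and phosphorylate CREB, which binds the cAMP response element of promoters. PKA phosphorylates CDK16 near its N terminus, which hinders the binding of its activating partner cyclin Y.

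The total count was between 25838443 and 50303269 reads per library. The line's markers VIM, CD44, EGFR, KRT18 and CAV1 were detected in all 6 libraries, while ESR1, PGR and CDH1, low in this line, were at or below 0.174 RPKM (reads divided by the exon length and by the total of the library) in each. Of the other markers fixed as low, ERBB2 lay between 2.56 and 6.54 RPKM and EPCAM between 1.55 and 4.30. Of the markers of other cells, PTPRC was at or below 0.0847 RPKM and PECAM1 at or below 0.395, while the fibroblast marker COL1A1 lay between 1.01 and 2.64. The part of other cells in the results was not tested. The targeted gene, CDK16, had 3223 counts with scramble, 1360 with CDK16-sh1 and 846 with CDK16-sh2, and 4996, 4609 and 2797 with DMSO, 1 μM and 5 μM Reb. After scaling, the log2 fold change of CDK16 against scramble was -1.52 and -1.82 with the hairpins. It differed from DMSO by -0.14 at 1 μM and 0.27 at 5 μM. The share of counts on mitochondrial genes was 16.2% with CDK16-sh2 against 11.3% with scramble, and 16.4% at 5 μM against 7.19% with DMSO. Its part in the results was not tested. The 5 μM library stood apart from the other Reb libraries, where scaling by library totals in place of TMM shifted the median log2 fold change of all genes by -0.68. In sh2 this shift was -0.19, and in the other treated libraries it was at most 0.05 in size.

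Per unit of length, PRKAR1A and PRKACA were the main transcripts of the set in both controls. With scramble the levels were 41.0 RPKM for PRKAR1A, 22.9 for PRKACA, 12.0 for PRKAR2A, 10.1 for ADCY3, 6.13 for PRKAR1B, 2.59 for PRKACB, 1.96 for ADCY9, 1.34 for PRKAR2B and 0.475 for PDE4D. No neighbours in that order had overlapping 95% counting intervals. With DMSO the levels were 64.8 RPKM for PRKAR1A, 22.9 for PRKACA, 9.13 for PRKAR2A, 8.61 for ADCY3, 7.71 for PRKAR1B, 2.02 for ADCY9, 1.46 for PRKAR2B, 1.39 for PRKACB and 0.933 for PDE4D. There the intervals of PRKAR2A and ADCY3 overlapped, as did those of PRKAR2B and PRKACB. The type I subunit PRKAR1A was thus the highest of the 9 in both controls and the cAMP-degrading PDE4D the lowest, a ranking of levels per length that covers counting error only.

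**Figure D1:**
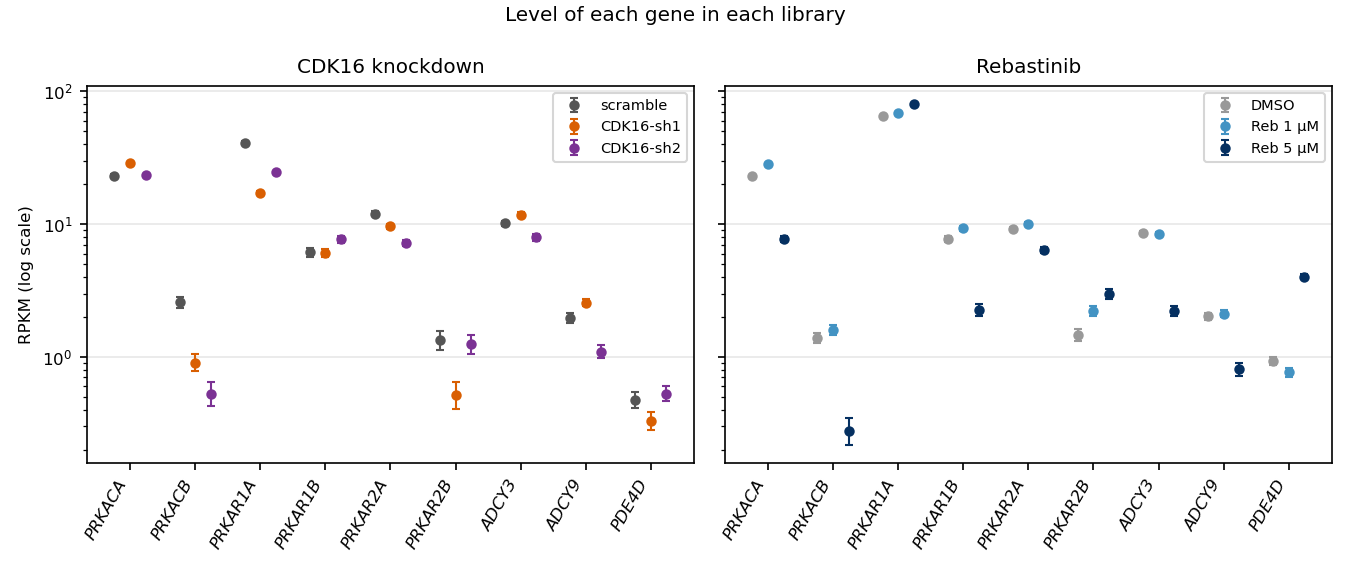
RPKM (log axis) of the 9 genes in the 3 knockdown libraries (left) and the 3 rebastinib libraries (right). Points are single libraries and bars are 95% counting intervals, so they hold no replicate error. PRKACB steps down from 2.59 with scramble to 0.907 and 0.530 with the hairpins, and PDE4D is at 4.01 with 5 μM Reb against 0.933 with DMSO.

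The catalytic subunits carry the kinase activity, and their transcripts differed from the controls in different ways. PRKACB (chr1:84078062-84238498, GRCh38, plus strand) had 450 counts with scramble, 195 with CDK16-sh1 and 98 with CDK16-sh2, and 470 with DMSO, 533 with 1 μM Reb and 70 with 5 μM Reb. It was low in both hairpin libraries and at the high dose, and near its control at the low dose. Its log2 fold change was -1.47 with CDK16-sh1 (95% counting interval -1.73 to -1.24) and -2.07 with CDK16-sh2 (-2.42 to -1.77), that is 2.77-fold and 4.21-fold lower. It was the member with the lowest value in both hairpin libraries. With Reb it was 0.16 at 1 μM, with an interval from -0.02 to 0.34 that includes 0, and -1.62 at 5 μM (-2.02 to -1.27), 3.08-fold lower. In bulk RNA, fewer cells with a transcript and less of it per cell cannot be told apart.

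PRKACA (chr19:14091688-14118084, minus strand), the more abundant catalytic gene, had 3640 counts with scramble, 5650 with CDK16-sh1 and 3937 with CDK16-sh2. It had 7087, 8556 and 1787 counts with DMSO, 1 μM and 5 μM Reb. The hairpin libraries were therefore slightly above scramble, by 0.36 and 0.22 on the log2 scale, and only the 5 μM library was below its control. The Reb values were 0.25 at 1 μM and -0.88 at 5 μM (-0.96 to -0.80), short of 2-fold. In 5 of 8 alternatives the latter passed 2-fold, and library totals put it at -1.57. No 50-base stretch of an annotated PRKACB transcript occurs in a transcript of another gene, and 1 of PRKACA does, in PRKACG (GENCODE 29).

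Sequence composition moved with these values. Across 15161 genes with a known GC content, the log2 fold change of CDK16-sh1 had a Pearson's r of 0.45 with GC content, a description across genes, which are not independent replicates. In the fifth of genes with the lowest GC content, to which PRKACB (36.1% GC) belongs, the median was -0.41 with CDK16-sh1 and -0.13 with CDK16-sh2, and it was 0.43 at 5 μM Reb. PRKACB minus those medians was -1.06, -1.94 and -2.05. With the trend on GC content and length removed, PRKACB stood at -0.90, -1.86 and -2.01, so that the value of CDK16-sh1 no longer reached 2-fold while those of CDK16-sh2 and 5 μM did.

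**Figure D2:**
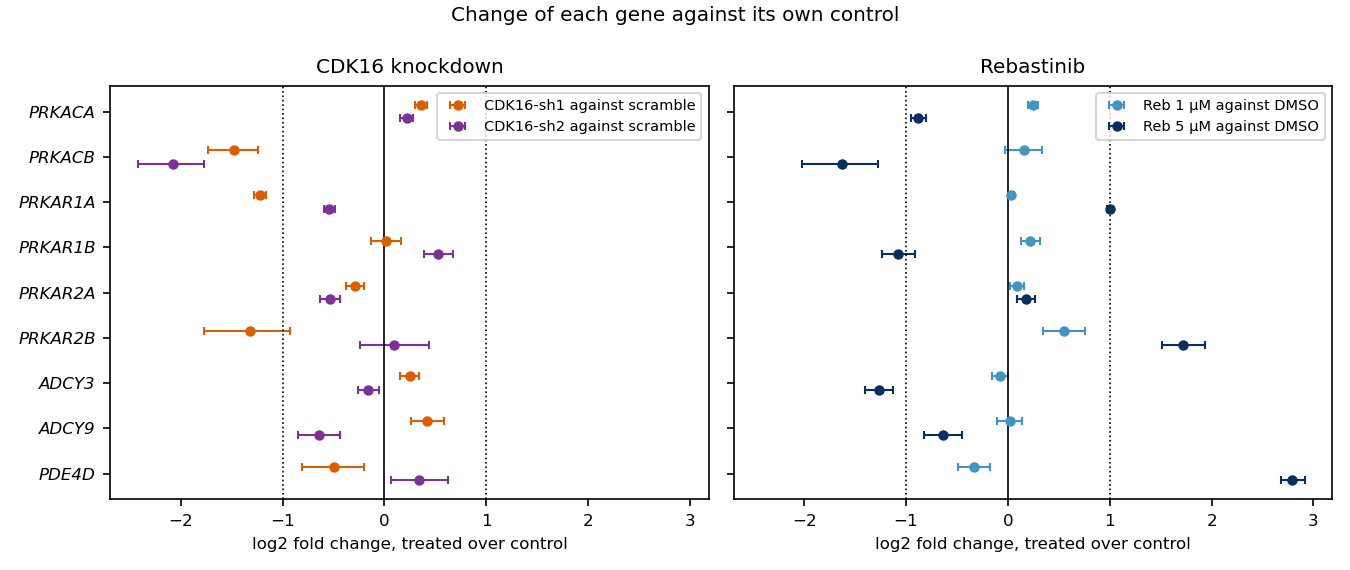
log2 fold change of the 9 genes for each hairpin against scramble (left) and each Reb dose against DMSO (right). Points are single library pairs, bars are 95% counting intervals and dotted lines mark 2-fold. PRKACB lies below the lower line with both hairpins and at 5 μM, and PDE4D reaches 2.79 at 5 μM.

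Of the type I regulatory subunits, PRKAR1A (chr17:68511780-68551319, plus strand) is the widely used isoform, and its loss is known to free the catalytic subunit. It had 7223 counts with scramble, 3749 with CDK16-sh1 and 4612 with CDK16-sh2, and 22234, 23118 and 20675 with DMSO, 1 μM and 5 μM Reb. Both hairpin libraries were below scramble, CDK16-sh1 by more, and at 5 μM it held nearly its DMSO count in a smaller library. The log2 fold changes were -1.22 (-1.28 to -1.17) and -0.54 (-0.59 to -0.49) with the hairpins, and 0.03 and 1.00 (0.98 to 1.03) with the doses. The 5 μM value sat on the 2-fold line. With library totals it was 0.31, and in 6 of 8 alternative settings it was under 2-fold. PRKAR1A shares 546 exon bases, 8.0% of its exon length, with RP11-120M18.2 on the same strand, whose counts were 3247, 1373 and 2183 in the knockdown libraries and 11502, 11944 and 10579 in the Reb libraries. How reads in the shared bases were assigned is not given in the sources used here, so the counts of these overlapping genes are uncertain to that extent.

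PRKAR1B (chr7:549197-727650, minus strand), the type I isoform best known from the nervous system, had 711, 871 and 951 counts with scramble, CDK16-sh1 and CDK16-sh2, and 1741, 2063 and 383 with DMSO, 1 μM and 5 μM Reb. It was not below scramble with either hairpin (0.02 and 0.53) and was 2.11-fold below DMSO only at 5 μM (-1.07, -1.24 to -0.92). At 62.9% GC it was the most GC-rich member, and with the GC and length trend removed its 5 μM value was -0.39. PRKAR1A and PRKAR1B were therefore on opposite sides of their controls in CDK16-sh2 and at 5 μM. The direction at 5 μM was the same in all 8 alternatives for both genes. PRKAR1B shares 383 exon bases, 8.5% of its exon length, with DNAAF5 on the opposite strand. The DNAAF5 counts were 860, 955 and 901 in the knockdown libraries and 803, 766 and 175 in the Reb libraries. Whether the counting used strand is not given in the sources used here, so both counts are uncertain to that extent.

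Of the type II regulatory subunits, which bind anchoring proteins tightly, PRKAR2A (chr3:48744597-48847846, minus strand) was the more abundant, with 2061, 2049 and 1323 counts in the knockdown libraries and 3051, 3298 and 1597 in the Reb libraries. It varied least of the regulatory genes. Its log2 fold changes were -0.28 and -0.53 with the hairpins and 0.09 and 0.17 with the doses, and at 5 μM library totals turned its direction, to -0.52. PRKAR2B (chr7:107044649-107161811, plus strand), the isoform of adipose and nervous tissue, had 149, 71 and 148 counts in the knockdown libraries, so that only CDK16-sh1 was low. In the Reb libraries it had 318, 474 and 487 counts and was above DMSO at both doses. The log2 fold changes were -1.32 (-1.77 to -0.93) with CDK16-sh1, 0.10 (-0.24 to 0.44) with CDK16-sh2, 0.55 (0.34 to 0.76) at 1 μM and 1.72 (1.52 to 1.93) at 5 μM. With 71 to 149 counts, the interval of CDK16-sh1 includes values short of 2-fold, and the value was -0.94 with the GC and length trend removed.

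The adenylyl cyclases ADCY3 and ADCY9, membrane enzymes that make cAMP, went opposite ways between the hairpins. ADCY3 (chr2:24819169-24919839, minus strand) had 1587, 2287 and 1322 counts in the knockdown libraries, above scramble with CDK16-sh1 (0.25) and below it with CDK16-sh2 (-0.16). It had 2625, 2531 and 507 counts in the Reb libraries, with values of -0.08 at 1 μM and -1.26 (-1.40 to -1.13) at 5 μM, the latter -0.73 with the GC and length trend removed. ADCY3 shares 1488 exon bases (24.6% of its exon length) with CENPO on the opposite strand. The library kit was stranded, but whether the counting used strand is not given in the sources used here, and without it reads of these genes could not be told apart. ADCY9 (chr16:3953387-4116185, minus strand) had 524, 850 and 312 counts in the knockdown libraries and 1053, 1084 and 314 in the Reb libraries. Its log2 fold changes were 0.42, -0.64, 0.02 and -0.64 in CDK16-sh1, CDK16-sh2, 1 μM and 5 μM, none of them 2-fold. The 5 μM value moved between -1.32 with library totals and -0.01 with the GC and length trend removed, so its size depended on the processing.

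PDE4D (chr5:58969038-60522120, minus strand), a cAMP-specific phosphodiesterase that PKA itself can activate and that is a known CREB-responsive gene in some of its forms, had the largest log2 fold change of the set, at 5 μM Reb. It had 200, 171 and 236 counts in the knockdown libraries and 764, 618 and 2461 in the Reb libraries. The hairpin libraries lay on either side of scramble, at -0.50 (-0.81 to -0.20) and 0.34 (0.07 to 0.62). The low dose was slightly below DMSO at -0.33 (-0.48 to -0.17), and the high dose was far above it at 2.79 (2.68 to 2.91), 6.93-fold higher. The count itself was higher at 5 μM although that library was the smallest of its experiment, and the log2 fold change stayed between 1.99 and 2.91 in all 8 alternatives. Its gene spans many alternative start sites, and counts per gene do not tell its isoforms apart.

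A gene entered the counts below if it averaged 1 CPM (a count scaled to a common library total) or more in its experiment, and all 9 members did so in both. With CDK16-sh1, 3 members (PRKACB, PRKAR1A, PRKAR2B) were at least 2-fold lower and 0 higher, where 6.86% and 4.33% of 15295 genes were. With CDK16-sh2, 1 was lower and 0 higher, against 7.62% and 2.2% of genes, and PRKACB was the 1 member lower in both hairpin libraries, against 1.44% of genes lower and 0.438% higher in both. Since the hairpin values chose PRKACB, nothing is read from these knockdown counts. At 1 μM Reb, 0 members were 2-fold lower or higher, against 1.92% and 1.28% of 15655 genes. At 5 μM, 3 were lower (PRKACB, PRKAR1B, ADCY3) and 3 higher (PRKAR1A, PRKAR2B, PDE4D), where 27.2% of all genes were lower and 23.6% higher. A count of 3 of 9 in either direction is near that background and is not a result about the members. In both doses together, 0 members passed in the same direction, against 1.08% of genes lower and 0.645% higher.

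The Reb values were tested with edgeR's quasi-likelihood test, which took both doses as 1 group of 2 libraries against DMSO. The difference between doses was thus the spread. The test could hardly call a gene that differs from DMSO at only 1 dose, since that difference enters the spread. It cannot tell such members from unchanged ones. It called 12 of 15655 genes, 0.0767%, of which 1 was lower and 11 higher. It called 0 members, all with an adjusted p of 1, and PDE4D had the lowest unadjusted p of the members in this edgeR fit, 0.125, at a log2 fold change of 1.95. Over all genes 228 had an unadjusted p under 0.05 in that fit, none of them members, and DESeq2 also called 0 members (adjusted p of 0.999 each). With a term linear in log2 of dose (with an offset for DMSO), edgeR's adjusted p was 0.000175 for PDE4D and 0.0373 for PRKAR2B. It was between 0.0965 and 0.853 for the other 7. Of all 15655 genes that fit called 1744 lower and 2088 higher, and it rests on 1 library per dose. The 2 of 9 members called are near that share of all genes and are not a result about the members.

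**Figure D3:**
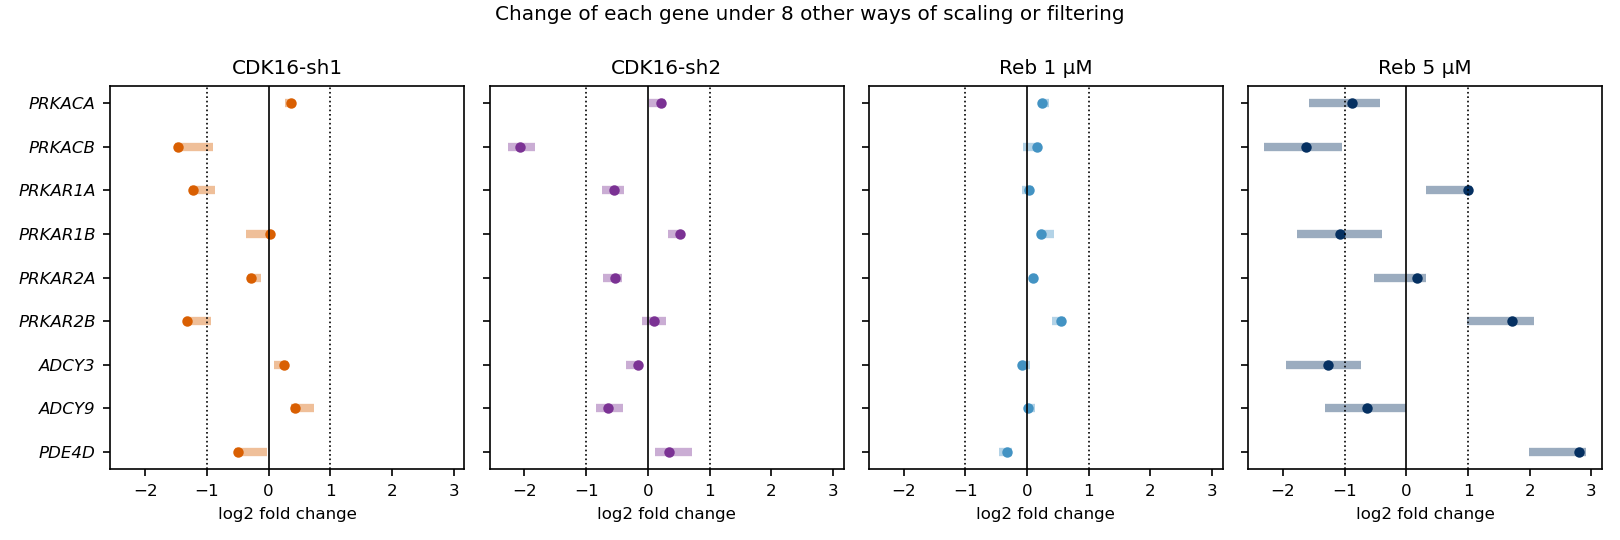
log2 fold change of the 9 genes in each treated library (points) with the span over 8 alternative scalings, filters or trend corrections (bars). Dotted lines mark 2-fold. Bars are widest at 5 μM Reb, where PRKAR1A spans 0.31 to 1.07 and PDE4D 1.99 to 2.91.

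Ratios within a library need no scaling between libraries and show how the makeup of the kinase's transcripts differed. They were not corrected for the trend on GC content, which differs between the genes compared. It is 36.1% for PRKACB, 55.6% for PRKACA, 42.8% for PRKAR1A, 42.1% for PDE4D, 57.4% for ADCY3 and 56.3% for ADCY9. The part of GC content in these ratios was not tested. PRKACB made up 10.1% (9.26 to 11.1) of the reads per length of both catalytic genes with scramble, 3.05% (2.65 to 3.51) with CDK16-sh1 and 2.22% (1.81 to 2.70) with CDK16-sh2. The corresponding share was 5.71% with DMSO, 5.38% at 1 μM and 3.45% (2.70 to 4.34) at 5 μM. The PRKACB share was thus lower in both hairpin libraries and at the high dose, and it also differed between the untreated controls, 10.1% against 5.71%, by more than their counting intervals. The experiment and the kind of control cannot be told apart in that difference.

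Type I subunits made up 77.9%, 69.6% and 79.2% of the reads per length of the regulatory genes with scramble, CDK16-sh1 and CDK16-sh2, and 87.3%, 86.4% and 89.8% with DMSO, 1 μM and 5 μM Reb. Only CDK16-sh1 was below its control by more than a few percentage points. The sum of regulatory over catalytic reads per length, a ratio chosen after its values were seen, was 2.37 with scramble, 1.13 with CDK16-sh1 and 1.71 with CDK16-sh2. The same ratio was 3.42 with DMSO, 3.03 at 1 μM and 11.5 (11.0 to 12.1) at 5 μM. In that library PRKAR1A was at 80.5 RPKM, PRKACA at 7.72 and PRKACB at 0.276. The ratio of PDE4D to the sum of ADCY3 and ADCY9, also chosen after its values were seen, was 0.0393, 0.0228 and 0.0584 in the knockdown libraries. It was 0.0877 with DMSO, 0.0726 at 1 μM and 1.33 (1.22 to 1.44) at 5 μM, where the transcript of a degrading enzyme exceeded the sum of those of both cyclases. These are ratios of transcripts and say nothing of the proteins.

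**Figure D4:**
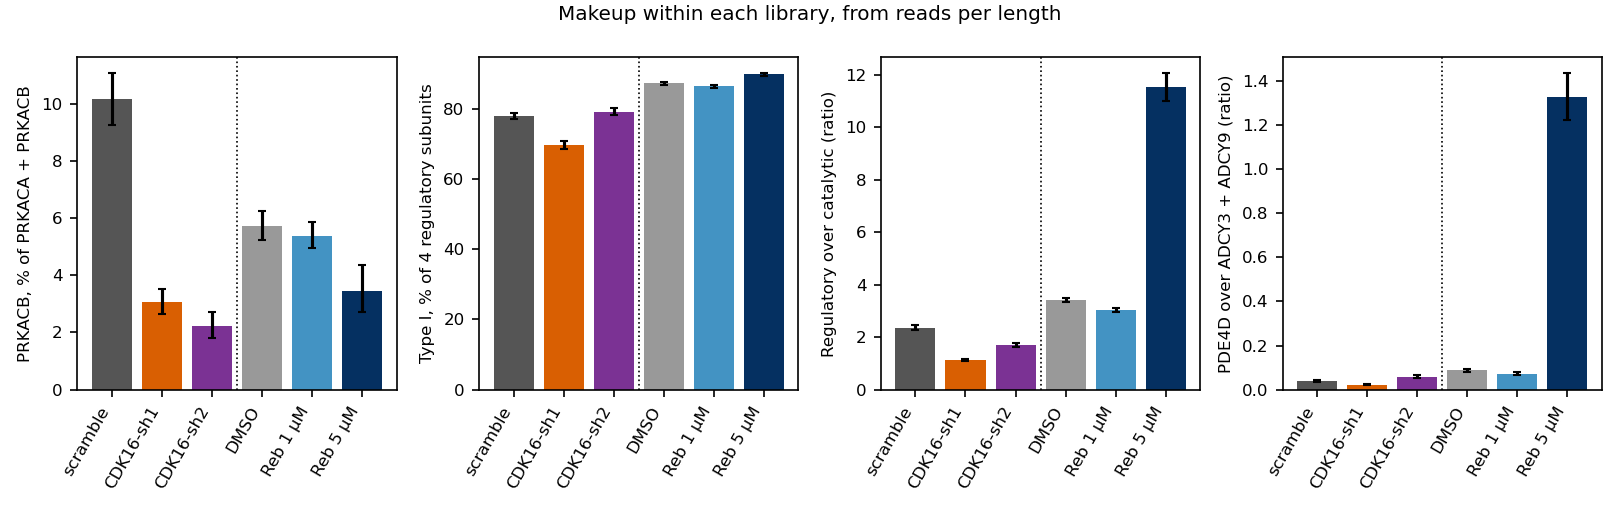
Makeup of the kinase and cAMP enzyme transcripts within each library, from reads per length, with 95% counting intervals as bars. From left: PRKACB share of the catalytic genes, type I share of the regulatory genes, regulatory over catalytic, and PDE4D over ADCY3 plus ADCY9. The regulatory over catalytic ratio is 11.5 at 5 μM Reb against 3.42 with DMSO.

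The letters of the cAMP response element were looked up before the start sites of these genes, since CREB is a target of the kinase and several members were 2-fold away from DMSO at 5 μM. RefSeq (GRCh38.p14) gave 30 start sites for 8 of the 9 genes, all but ADCY9, and the 250 bases before each were searched for the full motif TGACGTCA and its first 5 bases, TGACG, called the short motif here, on both strands. The full motif holds the short motif on each strand. The full motif was found in 1.65% of all 35116 windows and the short motif in 21.2%. Of all 27305 genes, 2.03% had the full motif in any window and 24.9% the short motif. PRKAR1A had the full motif in 1 of its 5 windows, 49 bases before the start site. The short motif was in 2 of the 5 windows of PRKAR1A. It was in 1 window each of PRKACA (of 2), PRKACB (of 5), PRKAR1B (of 6), ADCY3 (of 2) and PDE4D (of 8). PRKAR2A and PRKAR2B, with 1 window each, had neither motif. The 8 members had 30 windows, and all 27305 genes had 35116, so their shares per gene are not alike and no enrichment is read. The stretches of 30 bases around 1 motif are shown for PRKAR1A, which alone of the 8 had the full motif, and for both catalytic genes. PDE4D is also shown, as the member with the largest change. The motif is in capitals and each stretch is read on the strand of its gene.
PRKAR1A (chr17:68512370-68512399, plus strand): gcgaggcgcatTGACGTCAgtagccgaacg
PRKACB (chr1:84077937-84077966, plus strand): cccgggcctgcgCGTCActtccggcgcgcg
PRKACA (chr19:14117794-14117823, minus strand): gcggcgctgagcCGTCAgtcagggcggcct
PDE4D (chr5:59587665-59587694, minus strand): agagggccccctTGACGccagcacatcccc
A match of these letters is a description and no binding was measured. The members that share the short motif had values of both signs at 5 μM, where PRKACB was at -1.62, PRKACA at -0.88 and PDE4D at 2.79.

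The genes whose 4 log2 fold changes lay closest to those of PRKACB, among the 10554 genes that averaged 5 CPM or more in both experiments, were SMC1A (Euclidean distance 0.30), MYLK (0.49), RP11-516C1.1 (0.64), FBXO21 (0.65) and FKBP5 (0.67). The median distance of all genes was 3.22. SMC1A, a cohesin subunit, had log2 fold changes of -1.38 and -2.15 with the hairpins and -0.06 and -1.47 with the doses, beside -1.47, -2.07, 0.16 and -1.62 for PRKACB. MYLK, the myosin light chain kinase, had -1.49, -2.15, -0.28 and -1.42. The other catalytic gene, PRKACA, was at a distance of 3.03, close to the median, and PDE4D at 5.15. The values that PRKACB was chosen on enter this distance, and the hairpin values share 1 control, as do the dose values.

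The other genes of the pathway were taken from a list of 95 names in 10 groups, of which 65 passed the filter in the knockdown and 67 in the Reb experiment. Of these, 7 were at least 2-fold lower and 5 higher with CDK16-sh1, and 6 and 4 with CDK16-sh2, with medians of 0.01 and -0.15, where those of all genes were within 0.02 of 0. At 1 μM Reb 6 were lower and 4 higher, and at 5 μM 17 were lower and 22 higher, with medians of -0.05 and 0.40 beside 0.00 and -0.07 for all genes. Of all genes, 6.86% were lower and 4.33% higher with CDK16-sh1, and 7.62% and 2.2% with CDK16-sh2. At 1 μM 1.92% were lower and 1.28% higher, and at 5 μM 27.2% and 23.6%. At 5 μM, 17 of 67 lower is near that background and 22 of 67 higher is above it. In the other libraries the pathway shares are above it too, only slightly so for genes lower with CDK16-sh2. These shares, and the part of GC content in them, were not tested. The list was chosen with earlier results of these data known. In the knockdown libraries 1 gene was 2-fold lower in both, PDE3B (144, 61 and 64 counts), a phosphodiesterase named here after its values were seen. With both Reb doses 1 was lower (DUSP1) and 2 were higher, the PKA inhibitor PKIB (58, 210 and 81 counts) and RGS2 (42, 94 and 147). These 2 were also named after their values were seen. Of all genes, 1.44% were lower in both hairpin libraries, and 1.08% were lower and 0.645% higher at both doses.

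**Figure D5:**
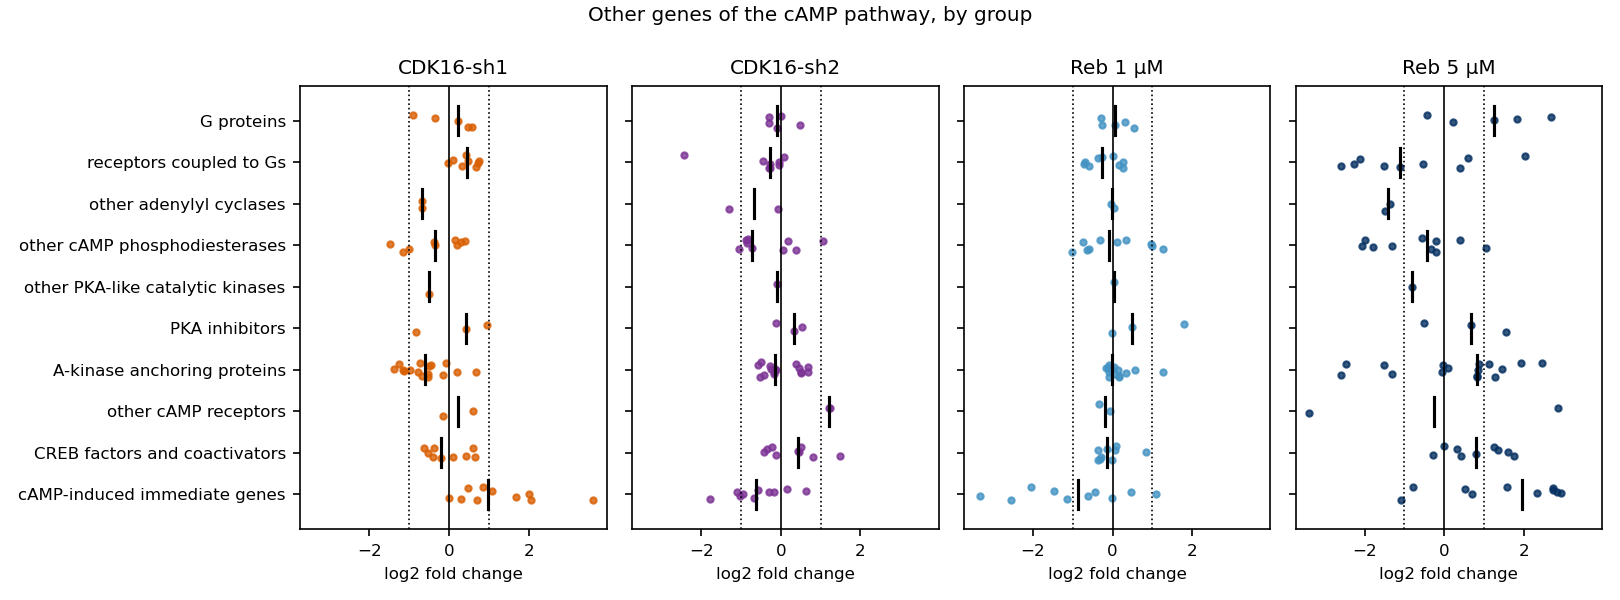
log2 fold change of the other cAMP pathway genes that passed the filter, by group, in each treated library. Each point is 1 gene, the black bar is the median of its group and dotted lines mark 2-fold. The immediate genes have medians of 0.97 and -0.63 with the hairpins, and of -0.88 and 1.96 with the doses.

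Upstream of the kinase, receptors coupled to Gs were mostly near scramble. With CDK16-sh1, 0 of 8 were 2-fold changed. With CDK16-sh2 only VIPR1, a receptor of vasoactive intestinal peptide, was 2-fold lower (603, 916 and 103 counts, 0.33 and -2.42). At 5 μM Reb 5 of 9 were 2-fold lower, PTGER4, PTH1R, GIPR and VIPR1 among them, and 1 was higher, GPR3 (292, 246 and 555 counts, 2.03). Of all genes, 27.2% were lower and 23.6% higher at that dose. Of the G proteins, GNAS, the Gs subunit itself, had 32303, 26693 and 35610 counts with DMSO, 1 μM and 5 μM and a log2 fold change of 1.25 at 5 μM, while the inhibitory subunits GNAI1, GNAI2 and GNAI3 had 2.69, 0.21 and 1.84. The other expressed cyclases, ADCY6 and ADCY7, were 2-fold lower at 5 μM like ADCY3 (-1.49 and -1.36). ADCY6 had 367, 276 and 137 counts in the knockdown libraries and was below scramble with both hairpins, at -0.68 and -1.30.

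Of the 10 other phosphodiesterases that passed the filter with Reb, 4 were 2-fold lower at 5 μM (PDE2A, PDE3B, PDE7B, PDE11A) and 1 higher, PDE7A, a cAMP-specific enzyme with 321, 636 and 309 counts and values of 0.96 at 1 μM and 1.05 at 5 μM. The PDE7A count at 5 μM was below that with DMSO, so its value there rests on the scaling between libraries. Library totals in place of TMM shifted the median of all genes at 5 μM by -0.68. PDE4B, of the same subfamily as PDE4D, was at -1.01 and -0.20 with the doses, whereas PDE4D was at -0.33 and 2.79. The 4 of 10 that were lower at 5 μM stand beside 27.2% of all genes. With CDK16-sh1 3 of 9 were lower and 0 higher, beside 6.86% and 4.33% of all genes. With CDK16-sh2 1 was lower and 1 higher, beside 7.62% and 2.2%.

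Anchoring proteins tether PKA through its regulatory subunits. With CDK16-sh1, 14 of 16 were below scramble and 4 of them 2-fold (AKAP5, AKAP6, AKAP12, ARFGEF2), with a group median of -0.60, where 7668 of all 15295 genes were below scramble and 6.86% were 2-fold lower, whereas with CDK16-sh2 0 were 2-fold changed and the median was -0.16. AKAP5 had 48, 25 and 37 counts in the knockdown libraries and AKAP6 had 40, 19 and 49, so depth limits their values. Across all genes the CDK16-sh1 values moved with GC content (Pearson's r of 0.45). The part of GC content in this group was not tested. ARFGEF2, a guanine nucleotide exchange factor with anchoring sites, had 1577, 870 and 981 counts and was lower with both hairpins, at -1.13 and -0.58. At 5 μM Reb 4 were lower and 5 higher, near the 27.2% and 23.6% of all genes. At that dose AKAP12 (43839, 46141 and 3353 counts) stood at -2.60 and AKAP2 (19242, 18494 and 48812 counts) at 2.45.

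Of the other proteins known to bind cAMP, 2 of 5 passed the filter. POPDC3, a membrane protein of the Popeye family, had 156, 290 and 341 counts in the knockdown libraries, above scramble with both hairpins (0.61 and 1.22), and stood at 2.86 at 5 μM Reb. RAPGEF3, the cAMP-driven exchange factor known as EPAC, had 745, 597 and 32 counts in the Reb libraries, -3.39 at 5 μM. CREB5 had 477, 865 and 747 counts in the Reb libraries and was above DMSO at both doses, at 0.83 and 1.75, while CREB1 was at -0.02 and 0.31. Of the PKA inhibitors, PKIG had 804, 1876 and 1076 counts in the knockdown libraries, at 0.94 and 0.53.

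Immediate genes known to be induced by cAMP, many of which also answer to serum and ERK signaling, differed between the libraries of each experiment. With CDK16-sh1, 5 of 10 were 2-fold higher and 0 lower (FOSB 3.62, JUNB 2.06, EGR1 2.02, DUSP1 1.68 and SIK1 1.09), and with CDK16-sh2 3 were lower and 0 higher (FOS -1.77, AREG -1.11 and NR4A2 -1.02), where 4.33% of all genes were higher with CDK16-sh1 and 7.62% lower with CDK16-sh2. With 1 μM Reb 5 were lower and 1 higher, and with 5 μM 1 was lower and 6 were higher, beside 1.92% of all genes lower at 1 μM and 23.6% higher at 5 μM. EGR1 had 567, 2786 and 272 counts with scramble, CDK16-sh1 and CDK16-sh2, and 1722, 171 and 5290 with DMSO, 1 μM and 5 μM. It thus stood on opposite sides of its control within each experiment, and DUSP1, a phosphatase of MAP kinases with 2784, 678 and 607 counts in the Reb libraries, was the only 1 of the 10 below DMSO at both doses (-2.06 and -1.09). With TMM scaling, these immediate genes were high in CDK16-sh1 and at 5 μM, the libraries where PRKAR1A differed most from its control. The PRKAR1A values there had opposite signs (-1.22 and 1.00). This ranking depended on the scaling, as with library totals PRKAR1A was at 0.31 at 5 μM and at -0.74 with CDK16-sh2. A link between PRKAR1A and the immediate genes was not tested. Pathway genes that the naming rule does not give were picked with their values in view.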

How the data were processed

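Stranded mRNA libraries of MDA-MB-231 cells, 1 per condition, were made by the authors and sequenced on a HiSeq X 10. The submitters' processing notes name Trimmomatic, featureCounts, Subread 1.5.1 and GRCh38, and the aligner and the strand setting are not given in the sources used here. The deposited counts are whole numbers of reads per gene symbol, without normalization. The deposited RPKM values are those counts divided by gene length and by the total count. No columns of authors' comparisons were used.

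Counts were scaled with TMM in R 4.3.3 and edgeR 4.0.16 over genes that averaged 1 CPM or more (15295 of 41471 and 15655 of 34157 symbols). The log2 fold changes carry a prior count of 2. The 2-fold line and the adjusted p of 0.05 are those of the study's methods. Intervals are exact 95% Clopper-Pearson intervals of the share of 2 counts, carried to ratios. For sums over several genes a normal interval on the log scale was used, with the Poisson variance of the counts. All cover counting error only, since each condition had 1 library, and they take each read as an independent count. For Reb, both doses were tested against DMSO with edgeR (glmQLFit and glmQLFTest, quasi-likelihood) and p-values adjusted by Benjamini-Hochberg over 15655 genes. This leaves 1 residual degree of freedom. The fit was tested on simulated counts of those 15655 genes. In these, 200 genes differed by 3 on the log2 scale, alike at both doses. The fit called 200 with libraries that varied by a coefficient of 0.1 (and 2 unchanged genes), and 3 with a coefficient of 0.4 (and 0 unchanged). A difference at 1 dose only was not simulated.

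All members and CDK16 are named. Pathway genes are named where they had a mean of at least 5 CPM and lay 2-fold to the same side in each treated library of an experiment, or were among the 3 with the largest smaller change of both libraries, and 5 genes are named for their distance to PRKACB. Other named genes were chosen after their values were seen. The members, the pathway list and these rules were chosen with earlier results of these data known. Symbols and spans were compared with GENCODE 29, and all members had the same span. The alternatives were library totals, DESeq2 1.42.0 size factors and test, RPKM with 0.1 added, a prior count of 0.5, no filter and a 4-fold line. Others were removal of a loess trend on expression and length, and removal of a linear-model trend on GC content and length. The last was a term linear in log2 of dose, with an offset for DMSO. Totals without mitochondrial genes, and TMM with no filter for single members, were added after the data had been seen.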

Additional observations from a re-analysis of the deposited data

Results flagged for a closer look

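Of the 9 members, 4 had values of opposite sign with the hairpins and 5 with the doses. Of all genes this held for 36.8% with the hairpins and 39.8% with the doses, so these counts by themselves are not a result about the members. In 3 members of each experiment both counting intervals lay clear of 0 on opposite sides. The share of all genes for which this held was not computed, so nothing about the members is read from that count. These differences were not tested, as each condition had 1 library. In the knockdown, the log2 difference of CDK16-sh2 minus CDK16-sh1 was -0.41 for ADCY3, -1.06 for ADCY9 and 0.84 for PDE4D. With Reb, the log2 difference of 5 μM minus 1 μM was -1.13 for PRKACA, -1.30 for PRKAR1B and 3.12 for PDE4D. PDE4D stood on both lists, as the phosphodiesterase among them.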

How the results depend on the processing

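Of 36 log2 fold changes of members, 29 kept their sign and 27 their side of 2-fold in all 8 alternatives, and no 2-fold value changed sign. No paired analysis was possible because each condition had 1 library. Leaving out a library would leave no residual degree of freedom. The lowest counts were 70 for PRKACB and 71 for PRKAR2B, and depth limits such values.

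With the GC and length trend removed, members at least 2-fold lower numbered 0 with CDK16-sh1, 0 in both hairpin libraries and 1 at 5 μM. At 4-fold the same counts were 0, 0 and 0, and 1 member was higher at 5 μM. Members lower at 5 μM numbered 5 with library totals, with RPKM and without mitochondrial genes, and 1 was higher there with RPKM. The cause was not tested.

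Of the pathway genes, library totals put 10 lower with CDK16-sh2, 3 lower with both hairpins, 12 higher at 5 μM and 1 higher at both doses. RPKM put 3 lower with CDK16-sh1, 2 higher with CDK16-sh2, 0 lower with both hairpins, 11 higher at 5 μM and 1 higher at both doses. With no filter 9 were higher with CDK16-sh1, 12 lower with CDK16-sh2, 2 lower and 1 higher with both hairpins, and 2 lower at both doses. At 4-fold 0 were lower and 3 higher with CDK16-sh1, 1 and 0 with CDK16-sh2, 3 and 0 at 1 μM, 8 and 9 at 5 μM, 0 lower with both hairpins, and 0 in either direction at both doses.

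Of all genes, library totals put 152 higher with CDK16-sh2, 33 with both hairpins and 1835 at 5 μM, where 6792 were lower. RPKM put 123, 27 and 1734 higher, 57 higher at both doses and 6490 lower at 5 μM. Without mitochondrial genes 206, 44 and 2138 were higher. With no filter, which adds genes of few counts, 2730 were lower and 2172 higher with CDK16-sh1, 3222 and 1897 with CDK16-sh2, 1001 and 455 with both, 2267 and 2440 at 1 μM, 8286 and 8070 at 5 μM, and 1227 and 998 at both doses. At 4-fold these pairs were 67 and 34, 166 and 8, 3 and 1, 53 and 10, 1580 and 1272, and 21 and 8.

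The edgeR calls with Reb, 1 lower and 11 higher, were 4 lower with DESeq2 and 0 lower and 0 higher with library totals (91 at an unadjusted p under 0.05). They were 0 and 3 with no filter, and 1744 and 2088 with the term linear in log2 of dose. Without division by length, type I subunits took 87.7%, 87.0% and 91.0% of the regulatory counts in the DMSO, 1 μM and 5 μM libraries, and the PRKACB share at 1 μM was 5.86%.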
